A study of Mus musculus with 8 samples.

Results

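Late neutrophil granule and S100 genes were followed across cultured mouse haematopoietic stem cells (HSCs) and a broader progenitor fraction, with and without red blood cells (RBCs). The 10 genes (S100a8, S100a9, Retnlg, Ngp, Camp, Ltf, Lcn2, Mmp8, Mmp9 and Cxcr2) were picked by symbol from the 24346 genes measured, as genes of mature neutrophils, with the RBC results of these same libraries already in view. The RBC comparisons therefore describe the genes and carry no p-value for them. Comparisons of the 2 cell types within a culture condition were not used for the choice and were tested, although they share their libraries with the RBC comparisons.

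RNA was sequenced from wild-type mouse bone marrow cells in 4 groups of 2 libraries. LSK cells were sorted as Lin-/Sca-1+/cKit+, and HSCs within that gate as CD48- and CD150+, so that the LSK gate holds HSCs together with multipotent progenitors. Each population was grown for 1 day either alone or in coculture with RBCs, in medium with thrombopoietin and stem cell factor that all groups shared, and CD45+ cells were sorted afterwards for RNA. The RBCs came from mouse blood that had been passed through a leukocyte filter and irradiated, so any white blood cell left in that preparation was added to the RBC groups only. Signal from such cells and signal from the cultured cells cannot be told apart in these groups. Neither the labels nor the methods say whether replicates came from separate mice or cultures, so p-values measure the spread between these libraries, which may be technical. In bulk RNA, fewer cells of a type and less RNA per cell cannot be told apart.

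Neutrophils build their granules in sequence as they mature. Primary granules with myeloperoxidase and elastase come first, at the promyelocyte stage, secondary granules with lactoferrin, cathelicidin, neutrophilic granule protein and lipocalin 2 follow in myelocytes, and gelatinase granules come last. S100A8 and S100A9 form calprotectin, the main cytosolic protein of mature neutrophils and also abundant in monocytes, and CXCR2, the chemokine receptor that brings neutrophils out of the marrow, appears late. HSCs are not expected to carry these transcripts in quantity, and the genes serve as readouts of myeloid cells or myeloid programmes in a sorted population.

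S100a8 and S100a9 lie next to each other on chromosome 3, at chr3:90669071-90670034 on the plus strand and chr3:90692630-90695721 on the minus strand (GRCm38.p6), with 22595 bases between the gene bodies and 0 RefSeq genes in the gap. Camp (chr9:109847377-109849456, minus strand), Ngp (chr9:110419808-110423012, plus strand) and Ltf (chr9:111019292-111042766, plus strand) share a stretch of chromosome 9, but 8 and 20 protein-coding genes separate the neighbours. Retnlg lies at chr16:48872608-48874498 on the plus strand, with no other of the 10 genes on that chromosome. Promoter sequences were found in RefSeq for 9 of the 10 genes. Those of the S100 pair, which stayed within a 1.55-fold range of its ratio in the 6 libraries with S100a9 above 10 FPKM, and of Retnlg and Ngp, which did not follow it, are printed as the 250 bases before the start of each gene, 5′ to 3′ on the strand of the gene (GRCm38.p6). They span chr3:90668821-90669070, chr3:90695722-90695971, chr16:48872358-48872607 and chr9:110419558-110419807 in that order. Capitals mark letters that fit TTNNGNAA, a loose C/EBP pattern, or GAGGAA, the core bound by PU.1, on either strand.
S100a8: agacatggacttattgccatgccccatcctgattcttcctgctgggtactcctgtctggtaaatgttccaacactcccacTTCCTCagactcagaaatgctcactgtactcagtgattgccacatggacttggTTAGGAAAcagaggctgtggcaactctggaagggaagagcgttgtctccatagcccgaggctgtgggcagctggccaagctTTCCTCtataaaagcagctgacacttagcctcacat
S100a9: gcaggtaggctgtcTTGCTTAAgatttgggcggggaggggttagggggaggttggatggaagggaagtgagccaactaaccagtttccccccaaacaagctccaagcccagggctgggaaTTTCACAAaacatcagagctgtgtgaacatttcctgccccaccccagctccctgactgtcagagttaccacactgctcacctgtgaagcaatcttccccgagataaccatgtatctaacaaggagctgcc
Retnlg: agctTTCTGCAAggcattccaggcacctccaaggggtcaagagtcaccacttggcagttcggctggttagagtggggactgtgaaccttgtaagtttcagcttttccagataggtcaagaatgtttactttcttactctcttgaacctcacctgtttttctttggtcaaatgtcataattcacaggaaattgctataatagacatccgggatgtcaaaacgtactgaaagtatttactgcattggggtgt
Ngp: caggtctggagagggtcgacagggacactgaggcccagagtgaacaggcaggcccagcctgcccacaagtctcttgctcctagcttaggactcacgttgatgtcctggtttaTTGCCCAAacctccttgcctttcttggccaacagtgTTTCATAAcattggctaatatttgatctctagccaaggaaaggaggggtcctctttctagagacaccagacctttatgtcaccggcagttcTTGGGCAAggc

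TTNNGNAA was found before 7 of the 9 genes (S100a8, S100a9, Retnlg, Ngp, Ltf, Lcn2 and Mmp8), and in 36.8% of all 32851 promoters of this length. GAGGAA was found before 5 of the 9 (S100a8, Ltf, Lcn2, Mmp8 and Cxcr2), and in 23.3% of all promoters. S100a8 held 1 match to the C/EBP pattern, 117 bases before the start, and 2 to the PU.1 core, at 170 and 36 bases. S100a9 held 2 C/EBP matches at 236 and 130 bases, Retnlg 1 at 246 bases and Ngp 3 at 138, 102 and 11 bases, and no match of either kind overlapped another. C/EBP factors and PU.1 direct granulocyte genes in general, but a match to such short patterns is a description of the letters only.

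The deposited values were FPKM (fragments scaled by transcript length and by all mapped fragments), which summed to 680942 to 752107 per library, and Pearson's r between replicates across genes was 0.979 to 0.983. Relative depth, read from the steps of low FPKM values, was 0.886 to 1.13. For 9 of the 10 genes all values were whole multiples of a single step within 0.02 fragments, and those multiples are given below as fragments, as the smallest numbers the steps allow. S100a9 gave approximate numbers. Counting intervals are exact 95% intervals for these fragments and do not cover amplification, since fragments of amplified cDNA are not independent molecules. The 10 genes together made up 0.00114% to 0.0829% of the summed FPKM. The first HSC library with RBCs stood apart from the others in having 16551 genes above 0, against 14829 to 15618 elsewhere. The genes of the sorting markers were present in all libraries, with Kit at 90.8 to 137 FPKM, Ly6a (Sca-1) at 170 to 719 FPKM and Slamf1 (CD150) at 10.2 and 10.7 FPKM in HSCs alone against 4.58 and 4.63 FPKM in LSK cells alone, and T cell markers summed to 0.214 to 1.06 FPKM per library.

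The S100 alarmin genes had the highest levels of the group in all libraries other than HSCs alone. S100a8 was at 5.70 and 2.32 FPKM (15 and 5 fragments) in HSCs without RBCs and at 148 and 22.3 FPKM (345 and 59 fragments) in HSCs with RBCs. LSK cells had 79.1 and 114 FPKM without RBCs and 303 and 204 FPKM with RBCs. The group with RBCs lay above the group without in both cell types, and LSK cells without RBCs already had more than the second HSC library with RBCs. S100a9, its partner in calprotectin, was at 0.220 and 1.33 FPKM in HSCs alone, 87.9 and 11.8 FPKM with RBCs, 30.5 and 63.5 FPKM in LSK cells alone and 156 and 89.6 FPKM with RBCs. Its groups were apart in the same way.

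Mean S100a8 was thus 21.2 times higher in HSCs with RBCs than without (counting interval 13.5 to 35), and mean S100a9 was 64.3 times higher (29.3 to 176). The S100a9 ratio rested on about 6 fragments in HSCs alone, and since its fragment numbers are approximate, so is its interval. The corresponding ratios in LSK cells were 2.62 (2.35 to 2.92) and 2.61 (2.32 to 2.95). Replicates were far from alike in HSCs with RBCs, at 84.9 ± 88.6 FPKM for S100a8 and 49.9 ± 53.8 for S100a9 (mean ± SD, n = 2). In LSK cells with RBCs they were at 253 ± 70.2 and 123 ± 47.1 FPKM.

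**Figure D1:**
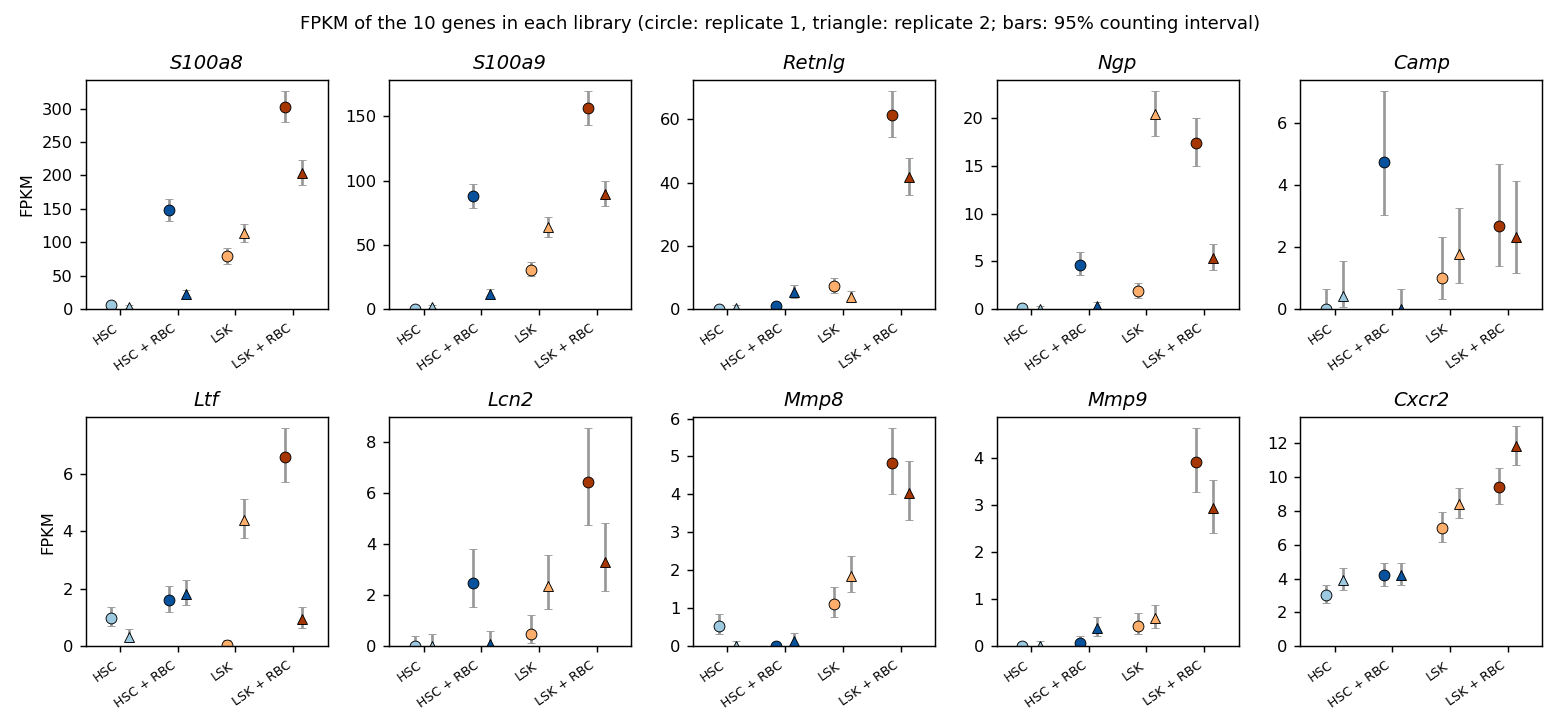
FPKM of the 10 genes (linear axes from 0, 1 panel per gene) in the 4 groups, with a circle for replicate 1, a triangle for replicate 2 and 95% counting intervals as bars. S100a8, S100a9, Ngp, Camp and Lcn2 were higher in replicate 1 than in replicate 2 of HSCs with RBCs, whereas Retnlg and Mmp9 were higher in replicate 2, and Ltf was at 0.0601 and 4.40 FPKM in the LSK libraries without RBCs.

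The secondary granule genes had lower levels than the S100 pair in every group except HSCs alone. Ngp, a cathelicidin-related granule protein, was at 0.0713 and 0 FPKM (1 and 0 fragments) in HSCs alone, 4.65 and 0.284 FPKM (58 and 4) in HSCs with RBCs, 1.85 and 20.4 FPKM (23 and 283) in LSK cells alone and 17.4 and 5.30 FPKM (192 and 62) in LSK cells with RBCs. The highest Ngp value of all came from an LSK library without RBCs, so the LSK groups overlapped. Camp, the antimicrobial cathelicidin, was at 0 and 0.428 FPKM in HSCs alone and at 4.74 and 0 FPKM with RBCs, with 24 fragments in the first library and 0 in the second, which allows up to 3. It was at 0.988 and 1.77 FPKM in LSK cells alone and 2.68 and 2.31 FPKM with RBCs, where the groups did not overlap.

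Lcn2, which encodes the iron siderophore binding protein lipocalin 2, had 0 fragments in both HSC libraries without RBCs, 2.50 and 0.105 FPKM (21 and 1 fragments) with RBCs, 0.476 and 2.35 FPKM (4 and 22) in LSK cells alone and 6.45 and 3.29 FPKM (48 and 26) with RBCs. Mean Lcn2 was at least 7.39-fold higher in HSCs with RBCs, taking 3 fragments over the group as the floor, and 3.45 times higher in LSK cells with RBCs. Ltf, the iron binding lactoferrin, was at 0.988 and 0.326 FPKM in HSCs alone, 1.59 and 1.83 FPKM with RBCs, 0.0601 and 4.40 FPKM (2 and 163 fragments) in LSK cells alone and 6.58 and 0.960 FPKM (194 and 30) with RBCs. The HSC groups of Ltf lay apart, but the LSK groups overlapped.

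The remaining genes, Retnlg, Mmp8, Mmp9 and Cxcr2, behaved differently again. Retnlg, a resistin-like protein of mature neutrophils, was at 0 and 0.209 FPKM in HSCs alone (0 and 1 fragments) and at 0.965 and 5.29 FPKM with RBCs (5 and 31 fragments). It was at 7.14 and 3.64 FPKM in LSK cells alone and rose to 61.5 and 41.7 FPKM with RBCs (282 and 203 fragments). No library with RBCs overlapped one without in either cell type, and the LSK ratio of 9.57 (counting interval 7.28 to 12.8) was the highest of the 10 genes in LSK cells. The HSC ratio of 29.9 rested on a single fragment without RBCs and had an interval of 5.03 to 1210.

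Mmp8, the neutrophil collagenase, was at 0.543 and 0 FPKM (18 and 0 fragments) in HSCs alone, 0 and 0.150 FPKM (0 and 5) in HSCs with RBCs, 1.12 and 1.86 FPKM in LSK cells alone and 4.83 and 4.05 FPKM with RBCs. It overlapped between the HSC groups and was apart between the LSK groups. Mmp9, gelatinase B, had 0 fragments in both HSC libraries without RBCs and 0.0770 and 0.386 FPKM (3 and 17 fragments) with RBCs. In LSK cells it was at 0.436 and 0.599 FPKM alone and 3.91 and 2.92 FPKM with RBCs, 6.6 times higher on average, and these were the only libraries with at least 1 FPKM of Mmp9. Cxcr2 varied least, at 3.03 and 3.93 FPKM in HSCs alone, 4.22 and 4.22 FPKM with RBCs, 7.01 and 8.42 FPKM in LSK cells alone and 9.40 and 11.8 FPKM with RBCs. Its groups with RBCs lay above those without by a factor of 1.21 in HSCs and 1.38 in LSK cells.

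Per length, S100a8 came first and S100a9 second in each of the 6 libraries other than HSCs alone, where Cxcr2 was first or second. Below the S100 pair the order differed between replicates. Camp ranked 3 of 10 in the first HSC library with RBCs and last, at 0, in the second, whereas Retnlg ranked 8 and 3. Retnlg ranked 3 in both LSK libraries with RBCs, above Ngp and Cxcr2, whose order differed between the 2 libraries.

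Whether the 10 genes moved in a single proportion was read from the ratio of replicate 1 to replicate 2 within a group. In HSCs with RBCs, S100a8 had a ratio of 6.62 (counting interval 5.01 to 8.88) and S100a9 of 7.46 (5.57 to 10.1). Ngp at 16.4 (6.07 to 62.2), Lcn2 at 23.8 (3.82 to 983) and Camp, with 24 against 0 fragments, lay on the same side. Retnlg went the other way at 0.183 (0.0554 to 0.473), as did Mmp9 at 0.2 (0.0375 to 0.69). Ltf at 0.869 (0.596 to 1.26) and Cxcr2 at 0.998 (0.8 to 1.24) were level. The intervals of Retnlg, Mmp9, Ltf and Cxcr2 did not reach those of the S100 pair. These intervals do not cover amplification, and the genes were grouped by the same ratios. The cause of the difference was not tested.

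The LSK replicates divided along other lines. Without RBCs, S100a8 had a ratio of 0.693 (0.574 to 0.836) and S100a9 of 0.481 (0.384 to 0.593), Retnlg went the other way at 1.96 (1.12 to 3.53), and Ngp and Ltf were 11.1 times (7.22 to 17.7) and 73.2 times (19.9 to 610) higher in replicate 2. With RBCs, S100a8, S100a9 and Retnlg had ratios of 1.49, 1.74 and 1.47, and Mmp8 and Mmp9 of 1.19 and 1.34. Ngp at 3.28 (2.45 to 4.45) and Ltf at 6.86 (4.65 to 10.4) again stood apart from them, and Cxcr2 was below 1 at 0.794 (0.683 to 0.922). Retnlg thus stayed close to the S100 pair in LSK cells with RBCs, but not in HSCs with RBCs.

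**Figure D2:**
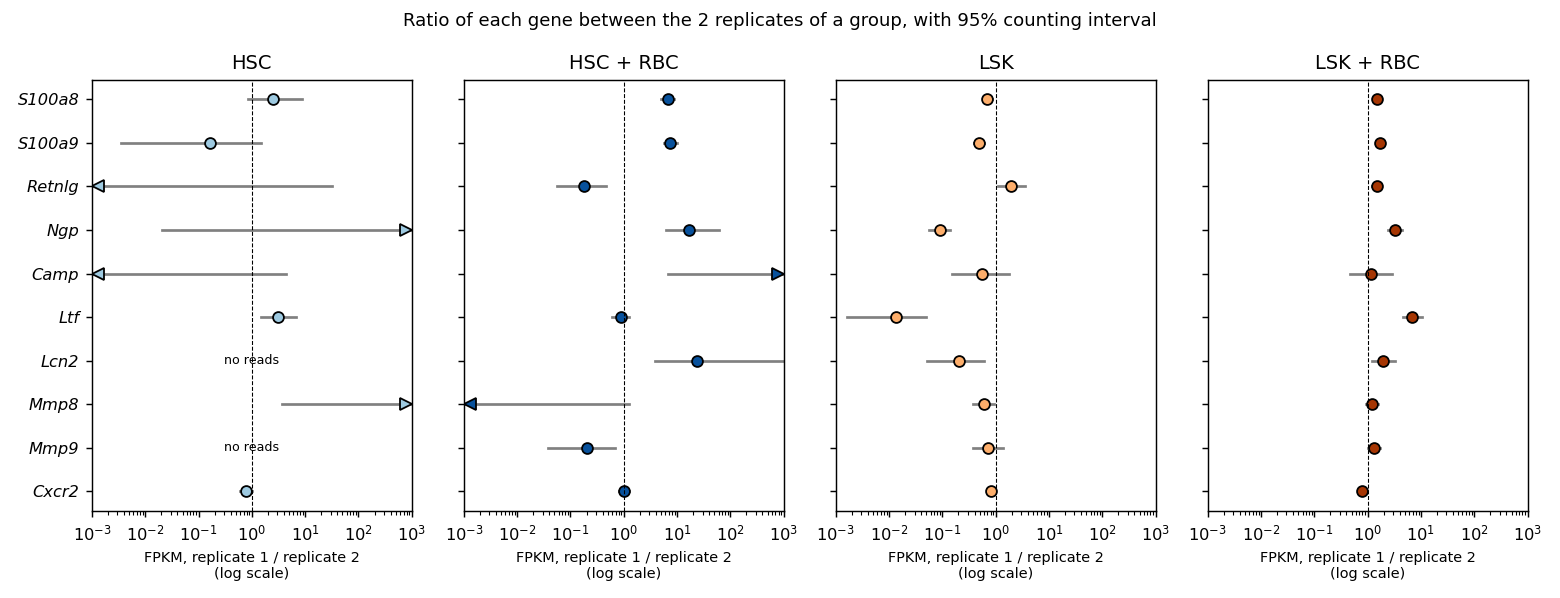
Ratio of FPKM between replicate 1 and replicate 2 of each group on a log axis, with 95% counting intervals as lines, arrowheads where a replicate had 0 fragments, and a dashed line at 1. In HSCs with RBCs, S100a8 and S100a9 sit at 6.62 and 7.46 and Retnlg and Mmp9 at 0.183 and 0.2, whereas Ltf leaves the other genes in both LSK panels.

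Set against S100a9 within the same library, S100a8 was the steadiest gene. Over the 6 libraries with S100a9 above 10 FPKM its level was 168% to 259% of S100a9, a 1.55-fold range. In HSCs alone, where the pair had few fragments, it was 2590% and 174%. Lcn2 ranged from 0.892% to 4.13%, 4.63-fold, and Cxcr2 from 4.79% to 35.8%, 7.47-fold. Ngp ranged 13.4-fold, from 2.41% to 32.1%, Mmp9 37.3-fold, Retnlg 42.4-fold, from 1.1% in the first HSC library with RBCs to 46.6% in the second LSK library with RBCs, and Ltf 78.9-fold, from 0.197% to 15.5%. Camp and Mmp8 reached 5.39% and 4.52% and were at 0 in a library each. The first HSC library with RBCs gave the lowest relative level of Retnlg, Mmp9 and Cxcr2 and the highest of Camp. These ratios do not depend on how libraries were scaled.

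**Figure D3:**
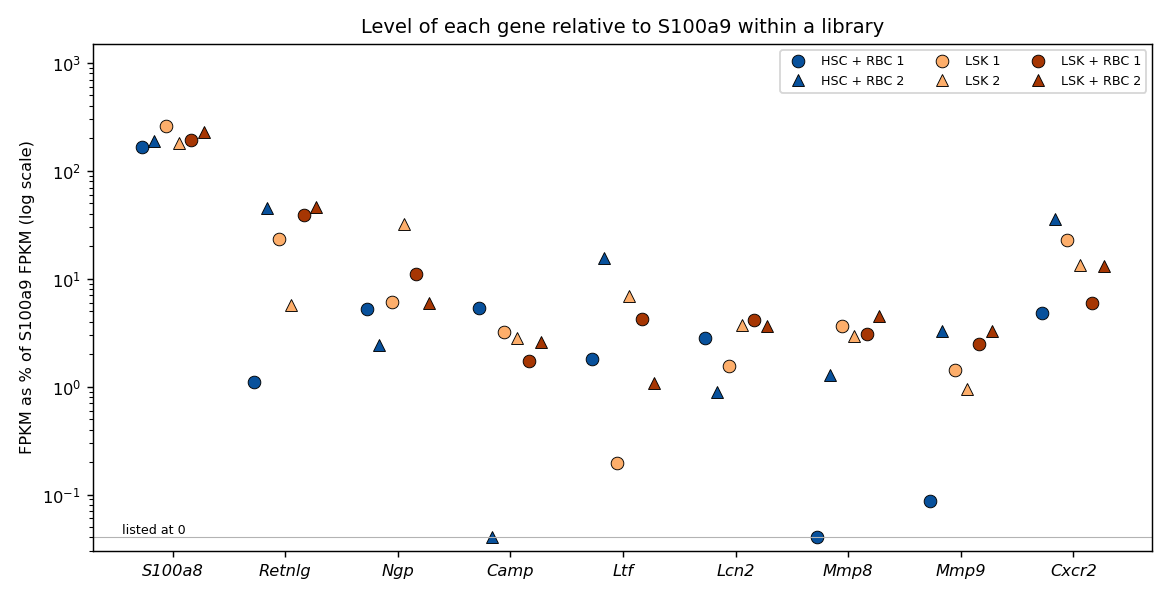
FPKM of each gene as a percentage of the S100a9 FPKM of the same library (log axis), for the 6 libraries with S100a9 above 10 FPKM, coloured by group, with values of 0 drawn on the grey line. S100a8 stays between 168% and 259%, whereas Retnlg spreads from 1.1% to 46.6% and Ltf from 0.197% to 15.5%.

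Taking the mean of the same cell type without RBCs off each library with RBCs gave the rise itself. It was positive in both replicates for 8 genes in HSCs and for 8 in LSK cells. In HSCs the rise of S100a8 was 165% of that of S100a9 in replicate 1 and 166% in replicate 2, although the size of the rise differed 7.91-fold for S100a9. With no baseline taken off the values were 168% and 189%, and with the baseline of the same replicate number 162% and 191%. The rise of Retnlg was 0.987% and 47.1% of the S100a9 rise in these 2 libraries. In LSK cells the values were 51.3% and 85.3% for Retnlg and 189% and 251% for S100a8, or 178% and 343% for S100a8 with the baseline of the same number. Ratios of the rise between replicates ran from 0.166 to 23.8 in HSCs and from 0.409 to 2.68 in LSK cells, over those 8 genes each. The genes left out were Camp and Mmp8 in HSCs and Ngp and Ltf in LSK cells, which lay below the mean without RBCs in at least 1 replicate.

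On the log2(FPKM + 1) scale, the difference with RBCs in HSCs was 4.32 for S100a9 (SE 0.757), 3.64 for S100a8 (SE 0.694) and 1.68 for Retnlg (SE 0.475). It was 1.38 for Ngp, 1.0 for Camp, 0.98 for Lcn2, 0.74 for Ltf, 0.29 for Mmp9, 0.23 for Cxcr2 and -0.21 for Mmp8. In LSK cells the largest difference was that of Retnlg at 3.07 (SE 0.475), followed by Mmp9 at 1.53 (SE 0.208), S100a9 at 1.40, S100a8 at 1.38, Lcn2 at 1.35 and Mmp8 at 1.14 (SE 0.250). Ltf, Camp, Ngp and Cxcr2 were between 0.69 and 0.41. A gene was called by limma at an adjusted p under 0.05 and at least 2-fold. S100a8 and S100a9 were called in HSCs, where 0.633% of the 12003 genes tested were called higher, and Retnlg, Mmp8 and Mmp9 in LSK cells, where 0.9% were. Groups were apart, with both libraries with RBCs above both without, for 8 genes in HSCs (19.9% of all genes) and 8 in LSK cells (24.2%). Lower calls numbered 0 of the 10 in both cell types, beside 0.142% of all genes in HSCs and 0.108% in LSK cells, and 0 of the 10 had both libraries with RBCs below both without (21.8% and 26.4% of all genes). Over the 10 genes the median difference was 0.99 (HSCs) and 1.24 (LSK cells), and over all genes tested it was -0.0062 and -0.0095. The choice of the genes used these contrasts, so nothing further is read from these counts.

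Whether genes were called depended on the library left out. With 1 HSC library grown alone left out, the RBC difference in HSCs was 3.13 to 4.15 for S100a8 and 3.86 to 4.79 for S100a9. Without the first HSC library with RBCs, S100a8 was at 2.30 and S100a9 at 2.92, and without the second they were at 4.98 and 5.72. In LSK cells, Retnlg was at 2.80 without the first library with RBCs and 3.34 without the second, and Mmp8 at 1.04 and 1.24. Mmp9 did not pass the filter in these last 2 fits and was not tested there. The difference between the HSC and LSK effects, as the interaction in limma, was called for 0 of the 10 genes, while 0.0333% of all genes were called higher and 0.075% lower. At an unadjusted p under 0.05 it held 4 of the 10 and 12.5% of all genes. Since the choice of the genes used both effects, nothing is read from these counts either. S100a9 and S100a8 differed by 2.92 and 2.26 towards HSCs and Retnlg, Mmp8 and Mmp9 by -1.39, -1.35 and -1.25 towards LSK cells. With a pseudocount of 0.1 the interaction value of Retnlg turned from -1.39 to 0.48 and that of Lcn2 from -0.37 to 0.88.

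Without RBCs, LSK cells had more of most of these genes than HSCs. S100a9 was higher by 4.74 on the log2 scale and S100a8 by 4.35 (limma, adjusted p = 0.003968 for both). Retnlg was higher by 2.48, past the thresholds here but not with all genes above 0 tested. Since Retnlg reached 1 FPKM in 1 HSC library only, it passed the filter through the LSK libraries. Its difference is given as a description. Of these 3 genes past the thresholds, Retnlg is not read as a test, and 1.62% of all genes were called higher. Both LSK libraries lay above both HSC libraries for 9 of the 10, all but Ltf (28% of all genes). In FPKM, S100a8 was 24.1 times and S100a9 60.6 times higher. Cxcr2 was higher by 0.96, under 2-fold (limma, adjusted p = 0.005732). Mmp8 and Mmp9, which passed the filter through LSK libraries alone, had differences of 0.99 and 0.60, given as a description. Ngp, Camp and Lcn2 reached 1 FPKM in 1 HSC library each, and their differences are a description too. Ngp had a difference of 2.91, with its high value in the second LSK library. Without the first LSK library the difference was 4.37 for Ngp and 2.08 for Retnlg. Lcn2 and Camp had differences of 1.15 and 0.97, and Ltf of 0.56 (limma, adjusted p = 0.6743). None of the 10 was called lower by limma (1.03% of all genes were) or had both LSK libraries below both HSC libraries (26.9%). The median over the 10 genes was 1.07, against 0.0085 over all genes tested.

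With RBCs, the called set was another. Cxcr2 was higher in LSK cells than in HSCs by 1.15 (limma, adjusted p = 0.0015) and was called, beside 2.61% of all genes called higher. Retnlg, Mmp8 and Mmp9 had differences of 3.88, 2.34 and 1.85, also past the thresholds. Mmp8 and Mmp9 reached 1 FPKM in LSK libraries alone, and Retnlg in 1 HSC library only. They thus passed the filter only through the group where they are high, and these differences are given as a description. S100a8 and S100a9 had differences of 2.08 and 1.82 with limma adjusted p of 0.05659 and 0.1112. Lcn2, Ngp and Camp, which also reached 1 FPKM in 1 HSC library only, were at 1.52, 2.0 and 0.54, as a description. Ltf was at 0.51. Both LSK libraries lay above both HSC libraries for 8 genes, all but Camp and Ltf (33.7% of all genes), and 0 were called lower (1% of all genes) or lay apart below (33.1%). The counts changed most with the first HSC library with RBCs. Without it 8 genes were past the thresholds (420 of all genes, against 433 with all libraries), S100a8 at 3.42 (adjusted p = 0.00138) and S100a9 at 3.22 (adjusted p = 0.00529) among them, and without the second LSK library with RBCs 2 were (Mmp8 and Retnlg, 397 of all genes), as Cxcr2 came to 0.99, under 2-fold, and Mmp9 no longer passed the filter.

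**Figure D4:**
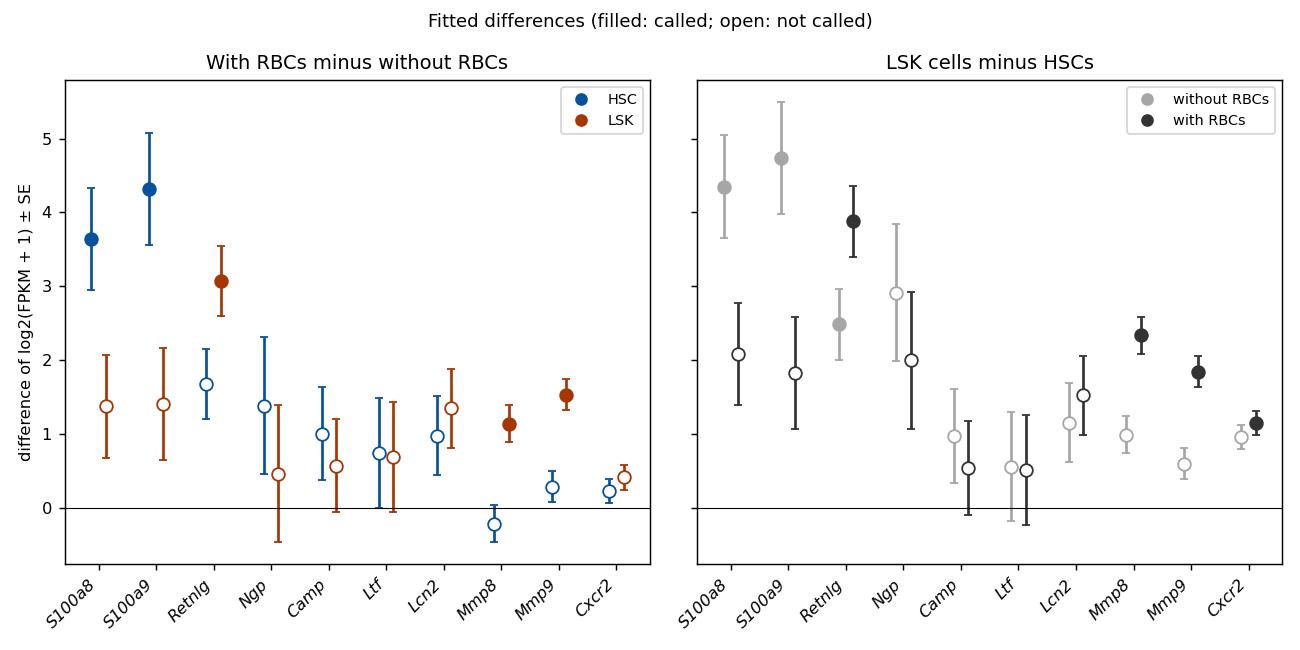
Fitted differences of log2(FPKM + 1) with their standard errors for the 10 genes, for RBCs against no RBCs (left) and for LSK cells against HSCs (right), with filled points for called genes. In HSCs, S100a8 and S100a9 have the largest RBC differences (3.64 and 4.32), in LSK cells Retnlg does (3.07), and Retnlg is filled in both comparisons of LSK cells with HSCs.

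Other neutrophil genes gave context for the stage of the signal. Of 15 further granule genes of neutrophils 8 passed the filter, of which 2 were called higher in HSCs with RBCs and 0 in LSK cells. Chil3, a chitinase-like protein of myelocytes and macrophages, was at 0.0510 and 0 FPKM in HSCs alone and 19.3 and 3.45 FPKM with RBCs, with the same replicate high as for S100a8. Slpi, a secreted protease inhibitor, was at 0.102 and 0.871 FPKM alone and 2.53 and 2.64 FPKM with RBCs. Fcnb, a ficolin of immature granulocytes that was singled out after its values were seen, was at 6.45 FPKM in the first HSC library with RBCs and at 0 to 0.0972 FPKM in the other 7 libraries. Pglyrp1, a peptidoglycan recognition protein of granules that was singled out after its values were seen, was at 49.2 and 56 FPKM in HSCs alone and 28 and 28.9 FPKM with RBCs (-0.86, limma, adjusted p = 0.01018, under 2-fold). It was at 45.4 and 61.7 FPKM in LSK cells alone and 80 and 76.6 FPKM with RBCs, and was the only gene of the list called for the difference between both effects. Lyz2, which encodes lysozyme, had differences of -0.53 in HSCs and 0.70 in LSK cells and Anxa1 of -0.26 and -0.22, and neither was called. At an unadjusted p under 0.05 the list held 3 higher and 2 lower genes in HSCs and 5 higher and 0 lower genes in LSK cells, where 13.7% and 18.6% of all genes reached it in either direction. All 5 primary granule genes were tested, and 0 were called higher with RBCs in either cell type. Prtn3 was higher in LSK cells with RBCs, from 223 and 204 to 359 and 384 FPKM (0.80, limma, adjusted p = 0.0006295), under 2-fold. At an unadjusted p under 0.05 the primary granule list held 0 higher and 2 lower genes in HSCs and 2 higher and 0 lower in LSK cells. Mpo, which encodes myeloperoxidase, was called lower in HSCs, from 17.8 and 11.1 FPKM to 6.16 and 2.82 FPKM. Of those 5 genes, 4 (Ctsg, Elane, Mpo and Ms4a3) were called higher in LSK cells than in HSCs both without and with RBCs. The 6 genes of the stefin A cluster, which mature mouse neutrophils express, were at 0 in all libraries.

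Receptors and other partners moved in part. Of 9 surface receptor genes of mature neutrophils tested, Itgam, the integrin chain CD11b, was at 3.54 and 3.14 FPKM in HSCs alone and 22.5 and 25.9 FPKM with RBCs, and went from 5.85 and 7.73 to 26.5 and 28.1 FPKM in LSK cells. Unlike S100a8, its replicates were close in HSCs with RBCs. Itgb2, its partner chain, was also called higher in both cell types, whereas the lectin receptor genes Clec4d, in both cell types, and Clec4e, in LSK cells, were called lower. None of 5 myeloid transcription factor genes was called by limma for RBCs in either cell type (Spi1 was at 63.2 to 119 FPKM, Cebpb at 38.2 to 55.6 and Cebpa at 0.679 to 13.9), nor was any of 7 other S100 genes tested, among them S100a11 at 504 to 891 FPKM and S100a1 at 173 to 306 FPKM. Cebpe, also listed and singled out after its values were seen, did not pass the filter. It was at 0.132 and 0.322 FPKM in HSCs alone and 0.445 and 0.393 FPKM with RBCs. In LSK cells it was at 0 and 0.267 FPKM alone and 0.838 and 0.869 FPKM with RBCs. The CXCR2 ligand genes Cxcl1, Cxcl2, Cxcl3 and Cxcl5 were at 0.372 FPKM or less in all libraries, while Ppbp, a further ligand gene that platelets express, was at 0.654 to 3.77 FPKM. The calprotectin receptor gene Tlr4 and the lipocalin 2 receptor gene Slc22a17 were at 1.61 to 5.26 and 5.87 to 9.19 FPKM, and 0 of the 4 tested ligand and receptor genes were called by limma for RBCs. Of 5 matrix metalloproteinase and inhibitor genes 0 were called, and of 10 NF-kB response genes 0 were called higher, with Ccl3 and Ccl4 lower in HSCs. Some genes of these lists had a limma adjusted p under 0.05 for RBCs but changed by less than 2-fold. In HSCs these were Spi1 (0.37), the receptor gene Csf3r (0.72) and Icam1 (0.78), and in LSK cells Timp3 (0.84), Mmp19 (0.97) and S100a6 (-0.36). At an unadjusted p under 0.05, which 13.7% of all genes reached in HSCs and 18.6% in LSK cells, HSCs had 3 transcription factor genes higher, 1 S100 gene higher and 4 lower, 0 ligand or receptor genes, 3 matrix genes higher and 1 lower, and 2 NF-kB response genes higher and 2 lower. LSK cells had 2 transcription factor genes higher, 2 S100 genes lower, 1 ligand gene lower, 2 matrix genes higher and 1 lower, and 2 NF-kB response genes higher. Of the 9 surface receptor genes, 3 were higher and 4 lower in HSCs, and 6 higher and 2 lower in LSK cells, at the same unadjusted p.

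Markers of other cells moved beside the 10 genes. The 9 monocyte and macrophage markers summed to 5.82 and 9.81 FPKM in HSCs alone, 15.3 and 21 FPKM with RBCs, 31.9 and 37.0 FPKM in LSK cells alone and 97.4 and 112 FPKM with RBCs. Of the 6 tested, Csf1r was called higher with RBCs in both cell types and Ccr2 in LSK cells, whereas the macrophage marker Adgre1 stayed at 0.566 FPKM or less. Of the 6 RBC markers tested 3 were called higher in HSCs (Hba-a1, Hbb-b1 and Alas2) and 1 in LSK cells (Hba-a1). In LSK cells Hbb-bs, not called, went from 0.00522 and 0.172 FPKM alone to 18.9 and 19.4 FPKM with RBCs. Hbb-b1 went from 0.907 and 2.12 to 0.0438 and 0.0145 FPKM there. In HSCs with RBCs Hbb-bs was at 0.00753 and 19.1 FPKM. Whether fragments were shared among these globin genes was not tested. Hba-a1 was at 0.0826 and 1.40 FPKM in HSCs alone and 116 and 88.7 FPKM with RBCs. The sum over the 8 markers in the files was 110.8 to 338.3 FPKM. Without RBCs it was mostly Hbb-b2, which was at 279 and 335 FPKM in HSCs alone. In HSCs with RBCs Hbb-b2 was at 120 and 158 FPKM of sums of 308.4 and 299.5 FPKM, with Hbb-b1 at 65.1 and 31.0 FPKM beside Hba-a1. B, NK and platelet marker lists gave 0 genes called higher with RBCs by limma, and Pf4, a platelet chemokine, was called lower in LSK cells (129.6 and 37.8 FPKM alone, 13.5 and 19.1 FPKM with RBCs). At an unadjusted p under 0.05, the B, NK and platelet lists together held 2 higher and 2 lower genes in HSCs and 1 higher and 3 lower in LSK cells. The 8 HSC markers gave 0 limma calls for RBCs in either direction, and at an unadjusted p under 0.05 (13.7% and 18.6% of all genes) 1 was higher and 5 were lower in HSCs, and 1 was higher and 3 were lower in LSK cells. Kit and Procr were lower in HSCs with RBCs by 0.37 and 0.52 on the log2 scale (limma, adjusted p = 0.02143 and 0.01491), under 2-fold. The part of these markers in the values of the 10 genes was not tested.

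Genes most like S100a9 and Retnlg were found by the root mean square difference of centred log2(FPKM + 1) profiles over the 8 libraries. For S100a9 these were Snora47 (1.363), Slpi (1.367), Thbs1 (1.416), Csf1r (1.429) and Cd300c (1.508), where the median over all genes was 2.437. For Retnlg they were Ccr2 (0.6531), Csf1r (0.8744), Cd33 (0.8987), Thbs1 (0.9501) and Slpi (1.005), against a median of 2.076. The closest pair among the 10 genes was Mmp8 and Mmp9 at 0.3619. Genes outside the 10 lay closer to each, such as Lpar1 to Mmp8 (0.1383) and Traf3ip2 to Mmp9 (0.1903). S100a8 and S100a9 were at 0.5628, closer to each other than S100a9 was to any gene outside the 10. Profiles of 8 libraries share the group means, so closeness is a description.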

How the data were processed

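RNA libraries of full-length cDNA (SMART-Seq HT, Nextera XT) were made from 8 samples. Each library came as 1 file of FPKM per gene symbol that the authors deposited, normalized for transcript length and mapped fragments and without pooling. The submitters' processing notes list TopHat2 2.1.1, Bowtie2 2.2.8, SAMtools 0.1.18, Cuffdiff 2.2.1 and mm10 (the GRCm38 assembly), and the annotation is not given in the sources used here. Groups came from the sample labels.

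The deposited FPKM values were put on a log2(FPKM + 1) scale (pseudocount 1), and 12003 genes reaching 1 FPKM in at least 2 libraries were kept. All 10 genes passed this filter, Mmp9 only through the LSK libraries with RBCs and Mmp8 only through LSK libraries. Retnlg, Ngp, Camp and Lcn2 reached 1 FPKM in 1 HSC library each and needed LSK libraries to pass. Fold changes on this scale understate those of low genes. limma 3.58.1 (R 4.3.3) fitted the 4 group means together with a mean-variance trend, leaving 4 residual degrees of freedom, with Benjamini-Hochberg adjustment over all tested genes. For a single gene an exact permutation of 2 libraries against 2 cannot give a p below 0.333.

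The 10 genes and all gene lists were chosen with earlier results of these data known. Named beyond the 10 were, per list, up to 4 genes called for RBCs with the largest differences, or else those of highest mean FPKM, and the 5 genes most like S100a9 and Retnlg. Levels were compared between genes per length only. Positions and promoters came from GENCODE M21 and RefSeq (GRCm38.p6), which holds a promoter for 9 of the 10. The limma fit was tested on simulated data in which only genes of higher level were changed. This does not cover the low genes among the 10. Replicate numbers were checked for pairing by the correlation of same-numbered deviations, which was -0.067 to 0.0954. With 2 libraries per group this cannot show whether same-numbered libraries share a mouse or culture, and they were treated as unpaired.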

Additional observations from a re-analysis of the deposited data

How the results depend on the processing

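Counts of called genes among the 10 depended on the settings. In HSCs the 2 calls for RBCs went to 0 with all genes above 0 tested, with only the HSC libraries fitted, without the mean-variance trend (50, 81 and 73 of all genes, against 93) and with a Student test, which called 0 of all genes in the 4 comparisons it was run for and so says nothing of the 10. In LSK cells the 3 calls went to 0 with a pseudocount of 0.1 (121 of all genes, as before) and with a Student test, and to 1 with all genes above 0 tested (70). For LSK cells against HSCs without RBCs the 3 calls became 6 with a pseudocount of 0.1 or 0.5 (485 and 437 of all genes, against 319), 5 without the fold threshold (1707) and 0 with a Student test, and with RBCs the 4 calls became 0 with a Student test. Leaving out each library in turn gave 0 to 3 calls in HSCs, 0 to 2 in LSK cells, 3 to 5 for LSK cells against HSCs without RBCs and 2 to 8 with RBCs. In these fits the group with 1 library left is assumed to vary like the others. Mmp9 did not pass the filter when either LSK library with RBCs was left out, so it was not tested there. Without the first LSK library, the difference of Ngp for LSK cells against HSCs without RBCs was 4.37, as a description. In LSK cells, 1 gene was called without the second library without RBCs. A few differences of low genes changed sign when a library was left out. For LSK cells against HSCs without RBCs, Ltf (0.56) ranged from -0.62 without the second LSK library to 1.73 without the first. With RBCs, Ltf (0.51) ranged from -0.47 without the first LSK library to 1.48 without the second, and Camp (0.54) from -0.72 without the second HSC library to 1.80 without the first. For RBCs, Camp in HSCs turned from 1.0 to -0.26 without the first library with RBCs and Mmp8 from -0.21 to 0.10 without the first grown alone. In LSK cells Ngp turned from 0.46 to -0.99 and Ltf from 0.69 to -0.49 without the first library grown alone, and to -0.31 and -0.29 without the first with RBCs. The interaction values of Ngp, Camp, Ltf and Lcn2 also changed sign when a library was left out, and the interaction gave 0 calls in every setting run. Both other scalings and the filter of 1 FPKM in 1 library kept each count within 1.5 times, although quantile normalization added S100a8 with RBCs (2.15, adjusted p = 0.0486, limma).

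A replicate block was fitted, although it is not known whether the numbers pair the libraries. It gave 2 calls in HSCs, 2 in LSK cells, 3 and 5 for LSK cells against HSCs without and with RBCs, and 0 for the interaction. The fifth gene was S100a8 (2.08, adjusted p = 0.035, limma). The same-numbered baseline changed the LSK proportions. The rise of S100a9 in replicate 1 over replicate 2 was 2.56 in LSK cells, 1.74 with no baseline taken off and 4.81 with the baseline of the same number, and set against that of Retnlg it was 1.66, 1.18 and 3.37, or 1.25 with S100a8 in place of S100a9. In HSCs the same ratio was 47.7 and stayed between 40.9 and 47.3 under these changes. The cause of these changes was not tested. Depth limited Retnlg, Ngp, Camp, Lcn2 and Mmp9 in HSCs without RBCs, which had 2 fragments or fewer per library.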
